A study of Mus musculus with 4 samples.

Results

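The 10 genes described here are immediate-early genes, namely the nuclear receptor genes Nr4a1, Nr4a2 and Nr4a3, the zinc finger factor genes Egr1, Egr2 and Egr3, the activity gene Arc, and the immediate early response genes Ier2, Ier3 and Ier5. They were picked by name, with their difference between genotypes in this table already known, and each has 1 row among the 23847 rows of the table. The libraries are bulk RNA-seq of whole back-skin epidermis of mice at postnatal day 20. Of the 4 libraries, 2 come from wild-type mice (labelled WT, Irx5+/+) and 2 from mice that lack Irx5 (labelled Irx5KO, Irx5-/-), and Irx5 encodes an Iroquois homeodomain transcription factor. All passed through 0.25% trypsin for 2 h at 34 °C and mechanical separation into a cell suspension. The Irx5 allele, the strain, the sex and the litters are not given in the labels, so the p-values measure only the spread between these samples. Levels are in FPKM, fragments per kilobase of transcript relative to all mapped fragments, which allows genes of different length to be compared.

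Immediate-early genes are transcribed from factors already present in the cell, so they answer growth factors, calcium, cyclic AMP and stress before any new protein is made, and their mRNAs decay fast. The NR4A proteins are orphan nuclear receptors that act without a known classical ligand, the EGR proteins bind GC-rich sites and are held back by the corepressors NAB1 and NAB2, and ARC was first studied in neurons, where it acts at synapses. IER3 is a stress-induced regulator of cell survival, and IER2 and IER5 are nuclear proteins, of which IER5 works with the heat shock factor HSF1 and the phosphatase PP2A. In skin some of these genes are known to be induced by wounding, and in many tissues some are induced by enzymatic dissociation of the cells.

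The sequences before the start sites of the 3 Nr4a genes are shown because these genes and Arc had the largest differences below and because their windows share a feature, and that of Ier3 is shown as a member without it. The RefSeq windows used here (GRCm38.p6) cover Nr4a1, Nr4a2, Nr4a3, Egr2, Ier3 and Ier5, 6 of the 10 genes, and those of Egr1, Egr3, Arc and Ier2 were not analysed here. For each, the 250 bases before the start were searched on both strands, and bases that GENCODE M21 counts as exonic are left out of the lines below. Capitals mark TGACG, the core of the cyclic AMP response element (CRE) bound by CREB proteins, read as CGTCA on the other strand, and GCGNGGGCG, the EGR binding site, on either strand.
Nr4a1, chr15:101266596-101266845, plus strand: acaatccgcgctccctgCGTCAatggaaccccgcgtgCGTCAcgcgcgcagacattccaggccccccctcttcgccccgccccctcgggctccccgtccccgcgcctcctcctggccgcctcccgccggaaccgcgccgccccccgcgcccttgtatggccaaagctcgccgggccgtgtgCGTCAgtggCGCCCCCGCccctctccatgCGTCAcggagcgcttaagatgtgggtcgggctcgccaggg
Nr4a2, chr2:57124004-57124253, minus strand: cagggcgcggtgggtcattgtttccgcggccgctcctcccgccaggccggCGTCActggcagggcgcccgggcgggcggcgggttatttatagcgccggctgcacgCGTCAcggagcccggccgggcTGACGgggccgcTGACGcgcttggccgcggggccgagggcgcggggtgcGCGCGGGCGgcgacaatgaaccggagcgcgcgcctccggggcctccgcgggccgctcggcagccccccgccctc
Nr4a3, chr4:48045055-48045152, plus strand: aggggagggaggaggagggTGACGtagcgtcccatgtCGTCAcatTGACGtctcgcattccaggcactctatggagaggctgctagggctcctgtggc
Ier3, chr17:35821463-35821683, plus strand: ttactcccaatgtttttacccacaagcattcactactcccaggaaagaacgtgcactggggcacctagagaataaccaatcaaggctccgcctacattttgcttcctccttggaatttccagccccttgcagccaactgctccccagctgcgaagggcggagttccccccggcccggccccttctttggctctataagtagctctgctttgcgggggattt

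The Nr4a1 window lies inside the annotated gene, before an inner start site, and the Nr4a2 window ends where the annotated gene begins. Each of the Nr4a windows held 4 matches to TGACG, at -233, -213, -69 and -40 in Nr4a1, at -200, -144, -123 and -111 in Nr4a2 and at -231, -213, -205 and -147 in Nr4a3 (first base of the match, counted back from the RefSeq start). The last of these in Nr4a3 lies in the 152 bases that GENCODE counts as exonic and is not printed. Of 32536 distinct windows of the same length, 17.9% held TGACG at least once and 0.138% (45 windows) held it at least 4 times. The limit of 4 was set after the Nr4a matches were seen, so this share is no test. The windows of Egr2, Ier3 and Ier5 held no TGACG. Egr2 had 5 RefSeq windows, of which only that nearest the annotated gene start was searched. GCGNGGGCG was found in the Nr4a1 and Nr4a2 windows and in 4.74% of all windows. GGGCGG, the GC box bound by Sp1, was found in all 6 windows and in 33.0% of all windows, and it overlapped the EGR match in Nr4a1 and Nr4a2. The whole CRE TGACGTCA (1.56% of all windows), the AP-1 site TGANTCA (6.73%), the NR4A site AAAGGTCA (1.35%) and the CArG box of serum response factor (1.48%) had no match in these 6 windows. Matches are letters in a window and say nothing of binding here.

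**Figure D1:**
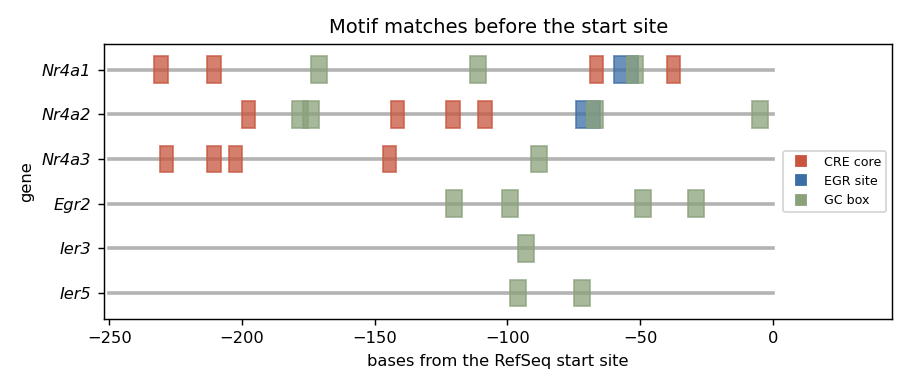
Positions of motif matches in the 250 bases before the RefSeq start site (horizontal axis, bases from the start) of the 6 genes analysed. Red blocks are the CRE core, blue blocks the EGR site and green blocks the GC box; the 3 Nr4a genes have 4 red blocks each and Egr2, Ier3 and Ier5 have none.

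The libraries were checked before the genes were read. Irx5 was at 17.4 and 16.4 FPKM in the WT libraries and at 10.01 and 10.08 FPKM in the Irx5KO libraries (log2 difference -0.70, limma adjusted p = 0.0117), so the transcript was lower but still detected. It was no longer called when Irx5KO replicate 1 (adjusted p = 0.103) or Irx5KO replicate 2 (adjusted p = 0.0899) was left out or when FPKM was rescaled to TPM (adjusted p = 0.0577), and its adjusted p ran from 0.00352 to 0.103 over 13 alternatives. Xist was at 36.6 and 33.9 FPKM in the WT libraries and at 0.0606 and 0.0459 FPKM in the Irx5KO libraries. The Y-linked Eif2s3y was at 0.0350 and 0.0422 FPKM in the WT libraries and at 70.9 and 75.7 FPKM in the Irx5KO libraries, and Ddx3y, Uty and Kdm5d had the same pattern. The labels do not give the sex, but this is the pattern of female WT and male Irx5KO mice. Genotype and sex therefore cannot be told apart in any comparison below. By the steps of low values, 1 FPKM on 2000 bases of transcript equalled an estimated 94.0 to 108 fragments in these libraries. All 7 keratinocyte markers (Krt5, Krt14, Krt1, Krt10, Cdh1, Trp63, Epcam) were present in every library, and the 6 fibroblast, 5 endothelial and 6 Schwann cell and neuron markers summed to at most 4.37, 1.57 and 3.26 FPKM in any library.

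The 3 Nr4a transcripts stood far lower in Irx5KO than in WT. Nr4a1, on chromosome 15 (101254269 to 101274795, mm10, plus strand), was at 753 and 913 FPKM in the WT libraries and at 15.1 and 61.9 FPKM in the Irx5KO libraries, with replicate 1 before replicate 2 here and throughout. The genotypes did not overlap, yet the Irx5KO libraries differed 4.09-fold from each other. As the tissue was read in bulk, fewer cells with the transcript and less transcript per cell cannot be told apart for any of these genes. Its means of 833 ± 113 and 38.5 ± 33.1 FPKM (SD, n = 2) were 21.6-fold apart, a difference of -4.70 on the log2(FPKM + 1) scale (SE 0.506, from the limma fit over all rows). Nr4a3, on chromosome 4 (48045153 to 48086447, plus strand), was at 28.5 and 51.3 FPKM in the WT libraries and at 0.143 and 0.226 FPKM in the Irx5KO libraries (log2 difference -5.05, SE 0.255). The Irx5KO values rest on an estimated 42.4 and 65.2 fragments, against 8536 and 17009 in WT, so the transcript was at the low end of the scale without being absent. Nr4a2, on chromosome 2 (57106830 to 57124003, minus strand), was at 11.7 and 9.49 FPKM in the WT libraries and at 0.352 and 0.665 FPKM in the Irx5KO libraries (log2 difference -2.94, SE 0.188). Its means were 20.8-fold apart on a linear scale, close to Nr4a1, while its log2 difference was smaller, since a pseudocount of 1 compresses values under 1 FPKM. With a pseudocount of 0.1 the log2 differences were -4.18 for Nr4a2 and -7.09 for Nr4a3. Nr4a1 made up 93.8% to 98.6% of the summed Nr4a FPKM in every library. Nr4a3 held 3.59% and 5.26% of that sum in WT and 0.912% and 0.360% in Irx5KO, and Nr4a2 1.47% and 0.975% in WT and 2.25% and 1.06% in Irx5KO, so Nr4a3 ranked above Nr4a2 in WT and below it in Irx5KO.

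Arc, on chromosome 15 (74669083 to 74672570, minus strand), was at 98.5 and 145 FPKM in the WT libraries and at 1.58 and 5.25 FPKM in the Irx5KO libraries. All WT values were above all Irx5KO values, and the Irx5KO replicates again stood apart, 3.31-fold. The means were 122 ± 33.2 and 3.42 ± 2.59 FPKM (SD, n = 2), 35.7-fold apart (log2 difference -4.91, SE 0.367). Of transcripts that mark neurons, Rbfox3 was at most 0.0203 FPKM and Tubb3 at most 0.121 FPKM in any library.

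The products of the Egr transcripts are zinc finger factors that turn early signals into later transcription. These transcripts were lower in Irx5KO by smaller log2 differences than those of the Nr4a genes and Arc. In the Irx5KO libraries they ranged from 12.8 FPKM (Egr3) to 384 FPKM (Egr1). Egr1, on chromosome 18 (34859823 to 34864984, plus strand), was at 1044 and 941 FPKM in the WT libraries and at 234 and 384 FPKM in the Irx5KO libraries (log2 difference -1.72, SE 0.285). Egr2, on chromosome 10 (67535475 to 67542188, plus strand), was at 89.4 and 108 FPKM in the WT libraries and at 32.4 and 41.4 FPKM in the Irx5KO libraries (log2 difference -1.40, SE 0.199). Their Irx5KO means were 31.1% and 37.3% of the WT means. Egr3, on chromosome 14 (70077203 to 70082614, plus strand), was at 57.9 and 105 FPKM in the WT libraries and at 12.8 and 14.8 FPKM in the Irx5KO libraries (log2 difference -2.42, SE 0.262). Here the WT replicates were the ones that differed, 1.81-fold, while the Irx5KO replicates were within 1.15-fold. Egr1 made up 81.5% to 87.6% of the summed Egr FPKM in all 4 libraries. The Egr sum was 1192 and 1154 FPKM in WT, against 279 and 440 FPKM in Irx5KO.

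The Ier transcripts were also lower in both Irx5KO libraries. Ier2, on chromosome 8 (84661331 to 84662852, minus strand), was at 561 and 411 FPKM in the WT libraries and at 136 and 267 FPKM in the Irx5KO libraries, the smallest log2 difference of the 10 genes (log2 difference -1.33, SE 0.325). That value was -0.81 after quantile normalization, -0.84 without Irx5KO replicate 1 and -1.81 without Irx5KO replicate 2. Ier3, on chromosome 17 (35821684 to 35822923, plus strand), was at 254 and 307 FPKM in the WT libraries and at 29.9 and 58.9 FPKM in the Irx5KO libraries (log2 difference -2.70, SE 0.296). Ier5, on chromosome 1 (155096361 to 155099636, minus strand), was at 56.7 and 72.2 FPKM in the WT libraries and at 10.7 and 16.3 FPKM in the Irx5KO libraries (log2 difference -2.19, SE 0.225). No library of either genotype overlapped the other genotype in these 3 genes. The same held for 72.3% of all rows tested, and in 18.0% of all rows both Irx5KO libraries lay below. Within the Ier sum the share of Ier2 was 64.4% and 52.0% in WT and 77.0% and 78.0% in Irx5KO, and that of Ier3 was 29.1% and 38.9% in WT and 16.9% and 17.2% in Irx5KO.

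**Figure D2:**
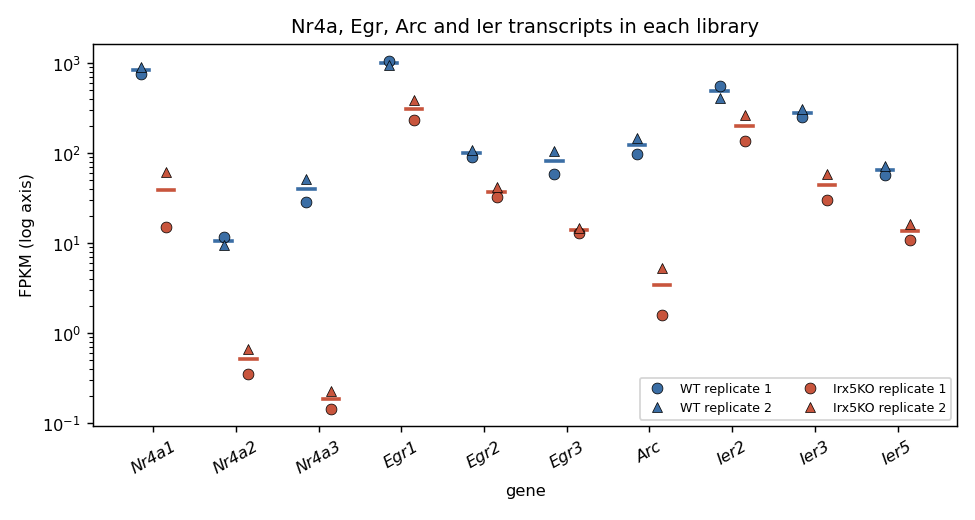
FPKM (log axis) of each gene (horizontal axis) in every library; circles are replicate 1, triangles replicate 2, and short lines the mean of 2 libraries, with WT in blue and Irx5KO in red. Every blue point lies above every red point of the same gene, and the red triangle lies above the red circle for all 10 genes.

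Ordered by level in WT, Egr1 (mean 992 FPKM) stood first, followed by Nr4a1, Ier2, Ier3, Arc, Egr2, Egr3, Ier5, Nr4a3 and Nr4a2 (mean 10.6 FPKM). The WT ranges of Arc and Egr2, Egr2 and Egr3, and Egr3 and Ier5 overlapped, and those of the other neighbours did not. Within each WT library the order was nonetheless that of the means. In Irx5KO the order was Egr1 (mean 309 FPKM), Ier2, Ier3, Nr4a1, Egr2, Egr3, Ier5, Arc, Nr4a2 and Nr4a3 (mean 0.184 FPKM). There the ranges of Egr1 and Ier2, Ier3 and Nr4a1, Nr4a1 and Egr2, and Egr3 and Ier5 overlapped. Egr1 was above Ier2 within each Irx5KO library, while the genes of the other overlapping pairs changed order between the replicates.

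All 10 genes passed the filter on low values (at least 1 FPKM in at least 2 of 4 libraries), Nr4a2 and Nr4a3 through their WT libraries alone. The fit called 10 of 10 lower, where 9.22% of the 11643 rows tested were called lower and 26.9% higher. In 10 of 10 both Irx5KO libraries lay below both WT libraries, as they did in 18.0% of rows, while both lay above in 54.3% and the genotypes did not overlap in 72.3%. The genes were chosen for this difference, so these counts describe the choice and no p is given for it. Their median difference was -2.56, beside 0.26 over all rows tested, a distance of -2.82. The 10 differences were negative under every scaling tried, with medians of -2.86 under median of ratios, -2.34 in TPM and -2.48 after quantile normalization. Those scalings moved the median of all rows to -0.0017, 0.50 and 0.08, and the share of calls that were increases from 74.5% to 43.2%, 86.4% and 53.9%.

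**Figure D3:**
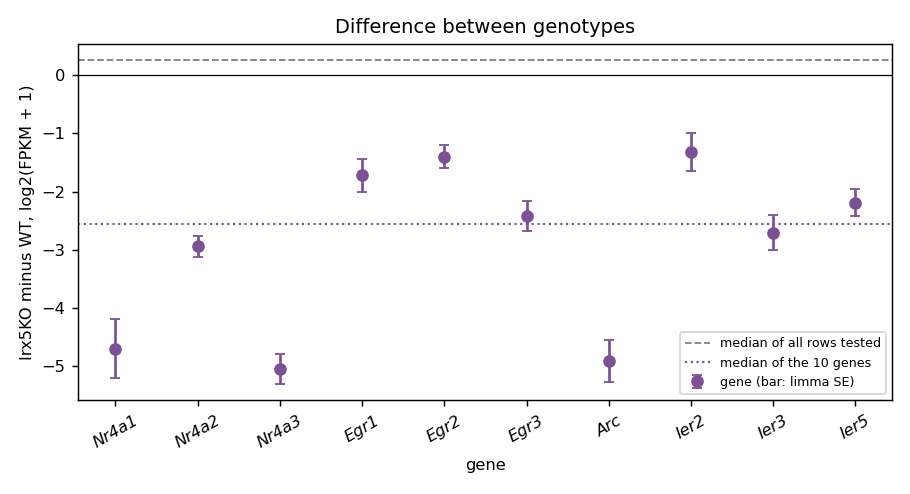
Difference Irx5KO minus WT in log2(FPKM + 1) (vertical axis) for each gene, with the standard error of the limma fit as the bar. The dotted line is the median of the 10 genes (-2.56) and the dashed line the median of all rows tested (0.26); Nr4a1, Nr4a3 and Arc lie below -4.

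Markers of other cell types were read beside these values. The 5 Langerhans cell and macrophage markers found in the table (Cd207, Cd74, H2-Aa, Csf1r, Itgam) summed to 829 and 471 FPKM in the WT libraries and to 212 and 294 FPKM in the Irx5KO libraries. Of the 4 tested 2 fell, Cd207 (log2 difference -2.92, adjusted p = 3.81e-05) and Cd74 (log2 difference -1.03, adjusted p = 0.0186). Beside this and the marker counts that follow, 9.22% of all rows tested were called lower and 26.9% higher, 36.1% in either direction. H2-Aa overlapped between genotypes (196 and 32.4 FPKM in the WT libraries, 17.2 and 36.8 FPKM in the Irx5KO libraries, adjusted p = 0.0884), and Csf1r was at 5.94 and 5.37 FPKM in the WT libraries and at 6.41 and 6.82 FPKM in the Irx5KO libraries (adjusted p = 0.377). The 5 T cell markers found summed to 126 and 55.2 FPKM in the WT libraries and to 86.8 and 95.1 FPKM in the Irx5KO libraries, and 0 of 5 tested were called. The 5 melanocyte markers summed to 10.6 and 25.9 FPKM in the WT libraries and to 9.15 and 7.74 FPKM in the Irx5KO libraries, the 3 erythroid markers found to 74.9 and 137 and to 38.7 and 68.6 FPKM, and the 5 skeletal muscle markers to between 4.10 and 5.44 FPKM in all libraries. Of these Dct, a melanin synthesis enzyme gene (7.39 and 16.4 FPKM against 5.91 and 4.29 FPKM, adjusted p = 0.0350), and the globin gene Hba-a1 (log2 difference -0.98, adjusted p = 0.0428) fell. The keratinocyte sum was 15546 and 13896 FPKM in the WT libraries and 11082 and 10935 FPKM in the Irx5KO libraries, with Krt14 lower and Trp63 higher. No marker of these lists was at 0 in all 4 libraries. The part of these cells in the values of the early genes was not tested.

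The difference between replicates of a genotype was not used to choose the genes. In Irx5KO, replicate 2 was above replicate 1 for 10 of the 10 genes, against 52.1% of all rows tested. By more than 0.5 log2 units it was higher for 6 of the 10, Nr4a1 (1.96), Arc (1.27), Ier2 (0.96), Ier3 (0.95), Egr1 (0.72) and Ier5 (0.56), against 3.34% of all rows, a limit set after the values were seen. The median over the genes was 0.64 and that over all rows 0.01, while Irx5 differed by 0.01 between these libraries. Nr4a2 and Nr4a3, near the bottom of the scale, were 1.89-fold and 1.59-fold higher in replicate 2. The 38 other early genes listed below showed the same direction in 36 cases, of which 17 were above 0.5, with a median of 0.44. In WT, replicate 2 was above replicate 1 for 7 of the 10 genes, against 37.9% of all rows, and by more than 0.5 for Egr3 (0.85), Nr4a3 (0.82) and Arc (0.56), against 4.51%. Ier2 (-0.45), Nr4a2 (-0.27) and Egr1 (-0.15) went the other way there. Each of these is 1 library against 1, so no test applies. In these Irx5KO libraries the Langerhans cell and macrophage sum was 212 and 294 FPKM in replicates 1 and 2, and the keratinocyte sum was 11082 and 10935 FPKM. Their part in the replicate difference was not tested.

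**Figure D4:**
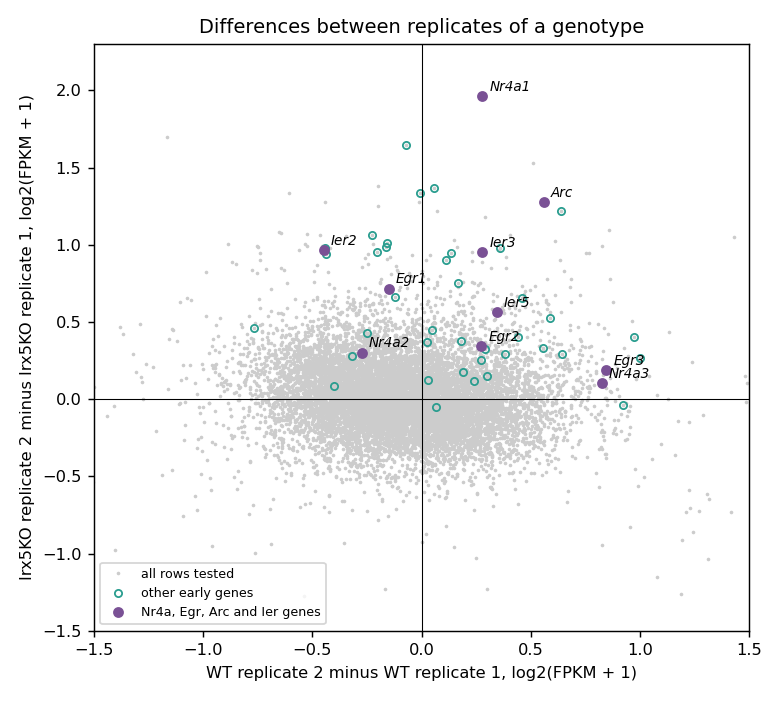
Difference between replicates 2 and 1 within WT (horizontal axis) and within Irx5KO (vertical axis), in log2(FPKM + 1), for all rows tested (grey, 40 of them outside the axes), the other early genes (green rings) and the 10 genes (purple). All purple points lie above 0 on the vertical axis, with Nr4a1 at 1.96, and they spread to both sides of 0 on the horizontal axis.

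The 38 other early genes are a list chosen with earlier results of these data known. Of them 32 fell, 0 rose and 6 did not pass (limma adjusted p below 0.05). Of all rows tested, 9.22% fell and 26.9% rose, 36.1% in either direction. At an unadjusted p below 0.05, 34 of the 38 were lower and 1 higher, against 1345 lower and 4208 higher of 11643 rows. The median of the 38 genes was -2.03, and Fosl1, Dusp2 and Ptgs2 passed the filter on low values through their WT libraries alone. Fosl1, an AP-1 subunit, went from 91.9 and 175 FPKM in WT to 0.221 and 0.190 FPKM in the Irx5KO libraries (adjusted p = 2.07e-06). Ptgs2, the inducible cyclooxygenase gene, went from 6.20 and 6.54 FPKM to 0.210 and 0.168 FPKM (adjusted p = 1.89e-05). Among these early genes, Fosl1 and Ptgs2 were the 2 that were not higher in Irx5KO replicate 2 than in replicate 1. Tiparp, an ADP-ribosyltransferase gene of the aryl hydrocarbon receptor response, went from 84.8 and 104 FPKM to 8.03 and 10.3 FPKM (adjusted p = 1.87e-05). Myc, a growth factor-induced transcription factor gene, went from 341 and 352 FPKM to 36.1 and 49.6 FPKM (adjusted p = 3.81e-05). The stress gene Gadd45b (log2 difference -2.76, adjusted p = 4.08e-05) and the small Maf factor gene Maff (log2 difference -2.74, adjusted p = 4.70e-05) fell as well. The 6 that did not pass, named after their values were seen, were Fos, Jun, Btg1, Sgk1, Per1 and Ctgf. Fos was at 1645 and 1211 FPKM in the WT libraries and at 552 and 1089 FPKM in the Irx5KO libraries (adjusted p = 0.0891), without overlap, and Sgk1 at 88.2 and 120 FPKM in the WT libraries and at 89.5 and 119 FPKM in the Irx5KO libraries (adjusted p = 0.994). Without the filter on low values 21 of the 38 were called, as were 2001 of 18467 rows.

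Of the 5 rows whose profile over the 4 libraries lay nearest to the mean profile of the 10 genes (Euclidean distance of centred log2 values, 4 libraries), Plk3, a stress-responsive polo-like kinase gene, was the closest (distance 0.161). It was at 50.8 and 61.8 FPKM in the WT libraries and at 4.27 and 9.26 FPKM in the Irx5KO libraries. The others were the chaperone gene Dnajb1 (0.220), Fam71a (0.228), the 14-3-3 sigma gene Sfn (0.249) and Myc (0.259). Within the 10 genes the distance to their own mean ranged from 0.280 for Ier3 to 2.20 for Nr4a3.

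Genes of the factors that receive the inducing signals were read as a list. Of 14 listed genes of SRF and CREB inputs 13 were tested, of which 3 fell, 2 rose and 8 did not pass, with a median of 0.14, and the share called was near the 36.1% of all rows. Srf, the serum response factor that drives Egr genes through CArG boxes, went from 68.1 and 104 FPKM to 12.4 and 14.8 FPKM (log2 difference -2.55, SE 0.225, adjusted p = 1.23e-04). Crem, which yields both activators and repressors of cyclic AMP response, went from 21.6 and 15.1 FPKM to 2.13 and 2.41 FPKM (-2.55, SE 0.202, adjusted p = 6.91e-05). Both kept adjusted p below 0.05 in all 13 alternatives, the highest being 0.0278 for Srf and 0.0267 for Crem. The CREB coactivator gene Crtc2 fell by 0.59 (adjusted p = 0.0346), and Creb1 rose by 0.55 (adjusted p = 0.0368) and the SRF coactivator gene Mkl2 by 0.61 (adjusted p = 0.0267). These 3 calls were lost in some alternatives, with adjusted p over the 13 alternatives reaching 0.183, 0.339 and 0.280. Beyond the median of all rows, Creb1 differed by 0.29 and Mkl2 by 0.35. Mkl1, Srf's other such coactivator, differed by 0.43 (adjusted p = 0.0671, but 0.0170 in TPM). Fewer genes of the list were called when Irx5KO replicate 1 or Irx5KO replicate 2 was left out, as were fewer of all rows.

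The kinase cascade above these factors was read in the same way. Of 15 listed genes of the ERK cascade 13 were tested, of which 1 rose and 0 fell by limma (1 and 0 at an unadjusted p below 0.05), with a median of 0.24 beside the 0.26 of all rows, of which 26.9% rose and 9.22% fell. Mapk3, which encodes ERK1, differed by 0.44 (adjusted p = 0.113, but 0.00413 in TPM and 0.0294 after quantile normalization), and Map2k1, which encodes MEK1, by 0.26 (adjusted p = 0.236, but 0.0471 in TPM). Braf differed by 0.32 (adjusted p = 0.207) and Rps6ka3 by -0.37 (adjusted p = 0.229). Rps6ka3 was called without WT replicate 1 (-0.67, adjusted p = 0.0237) and stood at -0.063 without WT replicate 2. More genes of the list were called without WT replicate 1 and fewer when either Irx5KO library was left out, as over all rows. Under median of ratios the list had 0 calls, where 2839 of 11643 rows were called, against 4200 in the main fit.

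Both paralogs outside the 10 genes fell. Egr4, the remaining EGR paralog, was at 4.22 and 6.13 FPKM in the WT libraries and at 0.0485 and 0.0301 FPKM in the Irx5KO libraries (log2 difference -2.55, SE 0.190, adjusted p = 4.70e-05), and it passed the filter on low values through its WT libraries alone. Ier5l, a paralog of Ier5, went from 12.0 and 10.03 FPKM to 2.90 and 5.30 FPKM (-1.27, SE 0.237, adjusted p = 0.00464, and 0.0646 without the filter on low values). The corepressor genes Nab1 (25.1 and 37.1 FPKM in the WT libraries, 24.7 and 23.4 FPKM in the Irx5KO libraries, adjusted p = 0.234) and Nab2 (13.3 and 14.1 FPKM, 14.7 and 17.9 FPKM, adjusted p = 0.330) did not pass. Nab1 was called without WT replicate 1 (-0.61, adjusted p = 0.0197) and stood at -0.060 without WT replicate 2. Of 17 listed relatives and partners 16 were tested, of which 3 fell, 2 rose and 11 did not pass, with a median of 0.10, and the share called was near the 36.1% of all rows. Besides the paralogs, the PP2A catalytic subunit gene Ppp2ca fell by 0.67 (adjusted p = 0.0282), the NR4A partner receptor gene Rxra rose by 0.54 (adjusted p = 0.0415) and the PP2A regulatory subunit gene Ppp2r5c rose by 0.54 (adjusted p = 0.0459). Beyond the median of all rows, Rxra and Ppp2r5c each differed by 0.28. The adjusted p of these 3 genes over the 13 alternatives reached 0.229, 0.320 and 0.389, and Ppp2r2a differed by -0.51 (adjusted p = 0.0659). Ppp2r2a was called under median of ratios (-0.81, adjusted p = 0.0270) and without WT replicate 1 (-0.72, adjusted p = 0.0143). With the replicate number as a block the list had 2 calls, where 4467 of all rows were called, against 4200 in the main fit. More genes of the list were called without WT replicate 1 and fewer without each of the other libraries, as over all rows.

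Genes that are induced with Arc in active neurons were read next. Of 7 listed, 3 passed the filter on low values and 2 fell, where 9.22% of all rows were called lower, namely Homer1, a synaptic scaffold gene (5.29 and 9.85 FPKM in the WT libraries, 2.57 and 2.81 FPKM in the Irx5KO libraries, adjusted p = 0.00821), and Nptx2, a secreted pentraxin gene (1.37 and 1.74 FPKM, 0.784 and 0.582 FPKM, adjusted p = 0.0235), which passed through its WT libraries alone. Nrn1 differed by -0.22 (adjusted p = 0.311, and 0.0445 after quantile normalization). Both calls were lost without the filter on low values (adjusted p = 0.0853 for Homer1 and 0.0612 for Nptx2), where the 1 call of the list was Vgf, at most 0.105 FPKM in any library and named after its values were seen. Nptx2 also lost its call without WT replicate 2 (adjusted p = 0.0861), without Irx5KO replicate 1 (adjusted p = 0.0519) and without Irx5KO replicate 2 (adjusted p = 0.163), and it was not tested with a minimum mean of 5 FPKM.

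**Figure D5:**
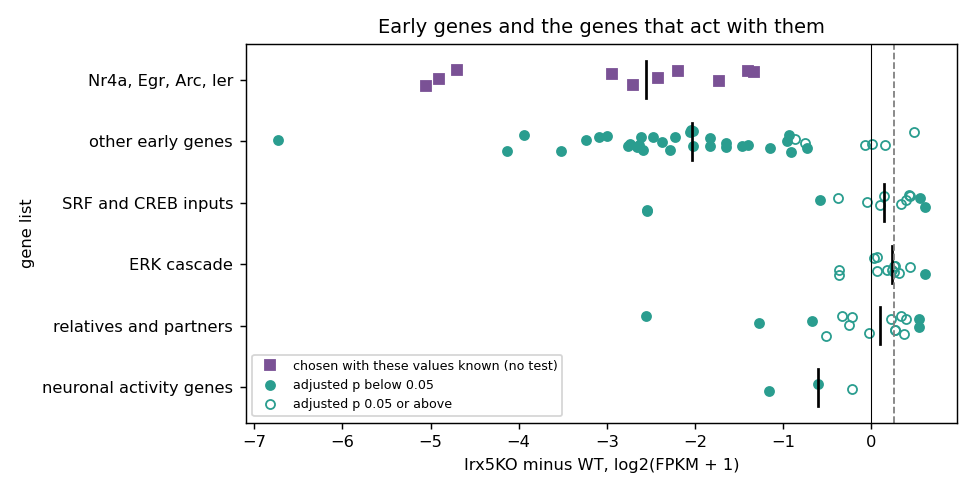
Difference Irx5KO minus WT in log2(FPKM + 1) (horizontal axis) for each tested gene of 6 lists (rows); filled circles passed an adjusted p of 0.05, rings did not, squares are the 10 genes, which have no test. Short vertical lines are list medians and the dashed line is the median of all rows (0.26); the other early genes centre on -2.03 and the ERK cascade on 0.24.

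In GENCODE M21 the gene models of the 10 genes spanned from 1240 bases (Ier3) to 41295 bases (Nr4a3), beside a median of 23143.5 bases over 10486 protein-coding genes with a tested row and an annotated 3' UTR, and Nr4a3 was the 1 above that median. Ier2 and Ier5 have 1 exon, as 2.15% of those genes do, Egr1, Egr2, Egr3 and Ier3 have 2, Arc has 3 and the Nr4a genes have 8. No other gene annotated there overlapped any of the 10 genes. The annotation and strand setting behind the FPKM values are not given, so the part of neighbouring reads was not tested. The pentamer ATTTA, the core of AU-rich elements that destabilise mRNA, occurred in the 3' UTR at 8.16 per kilobase in Ier3 and 5.52 in Nr4a1, densities that 1.77% and 5.18% of those genes reach. It was above the median of 1.203 per kilobase in 7 of 10 genes, and Arc and Ier2 had none. The longer element TTATTTATT was found in 0 of the 10 genes and in 7.11% of all.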

How the data were processed

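RNA of 4 epidermal libraries, 2 WT and 2 Irx5KO, was read from the table of FPKM values deposited by the authors. Bowtie2, DESeq2 and the build mm10 are named, per the submitters' processing notes, but how FPKM was derived, and with which annotation and strand setting, is not given in the sources used here. RNA with an integrity number above 8 was sequenced, per the labels.

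Rows with at least 1 FPKM in at least 2 libraries (11643 of 23847) were fitted on log2(FPKM + 1) with limma 3.58.1 in R 4.3.3, with an intensity trend, 2-sided, and p-values were adjusted by Benjamini-Hochberg across these rows (threshold 0.05). Differences are Irx5KO minus WT, and this scale understates changes of low genes. The fit was run on simulated normal values in which 200 rows were raised. In the real data 4200 rows were called, so that run does not show how the fit performs on them. An exact permutation of 2 against 2 cannot go below 0.333, so no permutation p is given. Genes and lists were chosen with earlier results of these data known. Named are the 10 genes, Irx5, sex-linked transcripts, up to 6 genes of smallest p per list with the paralogs and Nab genes, the 5 nearest profiles, and marker genes; exceptions are said to be such. Results for some genes that this rule names are left out of the text. Counts were not used. Depth was estimated from single-transcript genes over 600 bases. Taking fragments to be 200 bases long, 66.4% to 69.1% of values up to 10 fragments were whole within 0.1, against 20% by chance, too few for a count test. Gene models are from GENCODE M21 (mm10). Hras, Trdc, Adgre1, Hbb-bs and Hbb-bt were not matched to a row. There were 13 alternatives of scaling, filter, pseudocount, variance, block and left-out library.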

Additional observations from a re-analysis of the deposited data

How the results depend on the processing

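The 10 genes were lower in Irx5KO in all 13 alternatives, with 9 or 10 called and medians from -2.86 to -2.27, and since they were chosen for that direction this is no sign of stability. Rows called numbered 4200, and 2001 without the filter on low values, 2691 with a minimum mean of 5 FPKM and 6452 in TPM. Without the filter the calls were 1 among relatives and partners, 2 among SRF and CREB inputs, 21 among other early genes and 1 among neuronal activity genes. With the minimum mean of 5 FPKM they were 2 among relatives and partners and 1 among neuronal activity genes. In TPM they were 9 among relatives and partners, 8 among SRF and CREB inputs and 5 in the ERK cascade. After quantile normalization, with 2831 rows called, they were 3, 3 and 2 in the same order. Under median of ratios, with 2839 rows called, the ERK cascade had 0. Fewer or more rows tested is part of the filters' construction; for the scalings the cause was not tested. Leaving out each library gave 2182 (without Irx5KO replicate 1) to 5323 rows called, with 2464 without Irx5KO replicate 2, 9 to 10 of the 10 genes, 2 to 9 relatives and partners, 2 to 6 SRF and CREB inputs, 0 to 4 of the ERK cascade, 27 to 33 other early genes and 1 to 2 neuronal activity genes. A genotype left with 1 library is assumed to vary like the other. Signs reversed under median of ratios for Nab2 (-0.060) and Map2k1 (-0.029), neither of which passed.

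The labels give the genotypes the same replicate numbers without saying that a number marks a litter or day, and deviations of same-numbered libraries correlated at -0.067, so the numbers were not taken as pairs. With the replicate block 4467 rows were called and relatives and partners had 2 calls, and no other count named here moved by over 1.5 times. With 2 libraries a genotype, the spread behind each value is itself poorly known, and values under 1 FPKM depend on the pseudocount.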
